A study of Mus musculus with 9 samples.

Results

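The intestine carries its own nervous system. Enteric neurons and glia derive from the neural crest and sit in plexuses between and beneath the muscle layers, and interstitial cells of Cajal, which come from the mesoderm, pace the smooth muscle. Expression of 38 genes of these cells was followed in the colon of mice with chemically induced colitis: genes of neuronal structure and transmission, neural crest receptors and transcription factors, glial genes and Cajal cell genes. They were chosen by symbol, and all 38 were found among the 35315 genes of the deposited table.

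The colons came from wild-type C57BL/6J mice aged 8 weeks, with 3 libraries in each of 3 groups. GsMTx4 mice had 2.5% dextran sulfate sodium (DSS) in the drinking water for 7 days; this sulfated polymer damages the epithelial lining of the colon. They received GsMTx4 into a vein at 10 mg/kg, on day 2, day 4 and day 6. GsMTx4 is a spider-venom peptide that blocks cation channels opened by membrane stretch. DSS mice drank the same solution and were injected with solvent on those days, and Control mice drank normal water. The labels list no injection for the Control group, and what DSS did and what being injected did cannot be told apart there. Libraries are called GsMTx4 1 to 3, DSS 1 to 3 and Control 1 to 3. Whether each library is a different mouse is not stated, and the p-values cover only the spread among the libraries.

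Levels are FPKM, a read measure corrected for gene length and for library size, so levels of different genes can be compared. Sums per library ran from 349125 to 440935 FPKM; how many reads lie behind them is unknown. Changes were tested with limma on log2(FPKM + 1) over the 14360 genes that reached 1 FPKM in at least 3 libraries, and calls were made at a Benjamini-Hochberg adjusted p below 0.05. Most members were low. In all 9 libraries 11 of the 38 stayed below 1 FPKM, 4 exceeded 10 FPKM in any library (Tac1, Ano1, Vip and Hand2), and 14 reached the level for the test. The pan-neuronal RNA-binding protein gene Elavl4, the glial transcription factor gene Sox10 and the Cajal cell receptor gene Kit were above 0 in every library. In whole tissue, fewer cells of a type and less RNA per cell cannot be told apart.

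Of the 14 tested members, Tac1, Ednrb and Ret were higher in DSS than in Control and Ano1 was lower. That is 3 of 14 members higher and 1 of 14 lower, where 6.41% of all tested genes were called higher, 10.7% lower and 17.1% in either direction. Ret, 1 of the 3, reached the level for the test only through its DSS libraries, so these counts are no support for a rise. In GsMTx4 against DSS the same 4 genes passed in the opposite direction, Tac1, Ednrb and Ret lower and Ano1 higher, where 5.62% of all tested genes were called lower, 6.66% higher and 12.3% in either direction. Both comparisons contain the DSS libraries, so a high or low DSS value moves them in opposite directions. Between GsMTx4 and Control no member passed with limma, against 0.188% of all tested genes called higher, 0.0487% lower and 0.237% in either direction, and 1 of 14 members had an unadjusted p under 0.05, as did 10.1% of all tested genes. Tested members had a median log2 fold change of 0.50 in DSS against Control, beside -0.17 over all tested genes. In GsMTx4 against DSS the median was -0.38, beside 0.07. These medians include Ret and lean on library DSS 3. Without DSS 3, Calb2, Hand2, Nmu, Prph, Tubb3, Uchl1 and Vip were negative in DSS against Control. The DSS mean exceeded the Control mean for 32 of 38 members, and that of DSS 1 and DSS 2 alone for 12. The medians are therefore no support for a shift of the whole group.

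Stretches before a transcription start are shown for Tac1, Ednrb and Ano1 because these genes passed in both comparisons; Ret, which also passed, is named only. They are RefSeq sequences of build GRCm38.p6, taken from the 250 bases before the RefSeq start, which for each of them lies inside the GENCODE span of the gene given with its values. Bases that GENCODE M21 annotates as untranslated exon were left out, which leaves 68 bases for Tac1, 250 for Ednrb and 231 for Ano1. Capitals mark TGACG or its reverse complement CGTCA, the core of the cAMP response element.
Tac1 (chr6:7554811-7554878, plus strand): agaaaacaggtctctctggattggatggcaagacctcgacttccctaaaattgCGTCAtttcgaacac
Ednrb (chr14:103843702-103843951, minus strand): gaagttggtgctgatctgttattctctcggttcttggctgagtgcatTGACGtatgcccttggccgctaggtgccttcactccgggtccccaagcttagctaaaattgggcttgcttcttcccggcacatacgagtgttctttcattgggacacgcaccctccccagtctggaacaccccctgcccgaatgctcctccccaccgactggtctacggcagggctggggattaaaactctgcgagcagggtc
Ano1 (chr7:144738593-144738823, minus strand): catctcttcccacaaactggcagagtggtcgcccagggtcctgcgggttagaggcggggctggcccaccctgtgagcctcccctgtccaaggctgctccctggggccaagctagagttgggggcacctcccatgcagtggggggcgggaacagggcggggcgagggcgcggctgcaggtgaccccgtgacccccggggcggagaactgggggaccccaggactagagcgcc
Within the full 250 bases the core occurred at positions -197 and -43 from the RefSeq start in Tac1 (that at -43 lies outside the bases shown), at -203 in Ednrb and nowhere in Ano1. Of 32851 promoter windows of that length 17.8% held it on either strand. The E-box CANNTG was found at -173 and -61 in Tac1 and at -76 in Ano1, and in 66.2% of all windows. No match was found in these windows for the complete cAMP response element TGACGTCA (1.55% of all windows), the AP-1 site TGANTCA (6.75%) or the SOX site ACAANG (36.3%), each searched on both strands.

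Tac1 (chromosome 6, 7554879 to 7565834, GRCm38) encodes the precursor of the tachykinins substance P and neurokinin A, which excitatory enteric neurons release onto muscle. It stood at 29.9, 19.5 and 2.41 FPKM in the GsMTx4 libraries, at 95.02, 79.5 and 60.5 FPKM in the DSS libraries and at 2.08, 1.90 and 2.50 FPKM in the Control libraries. Every DSS library lay above every other library, and GsMTx4 3 lay within the Control range while GsMTx4 1 and 2 lay above it. The log2 fold change in DSS against Control was 4.63 ± 0.67 (SE, n = 3 per group, limma adjusted p = 0.0032), and the call held under each of 9 processing alternatives and without any 1 library (adjusted p at most 0.0163). In GsMTx4 against DSS it was -2.60 ± 0.67 (limma adjusted p = 0.037). That call was lost when any Control library (adjusted p 0.0573 to 0.0604), any DSS library (0.0709 to 0.0867) or GsMTx4 2 (0.0672) was left out, and with no filter on low values (0.101), TPM rescaling (0.0598) or a fit of the compared groups only (0.0945), with the log2 fold change between -3.22 and -1.64 across libraries left out. GsMTx4 against Control gave 2.04 ± 0.67 (limma adjusted p = 0.36), and without GsMTx4 3 the difference passed at a log2 fold change of 3.0 (adjusted p = 0.00177, against 0.315 to 0.774 under the other alternatives).

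**Figure D1:**
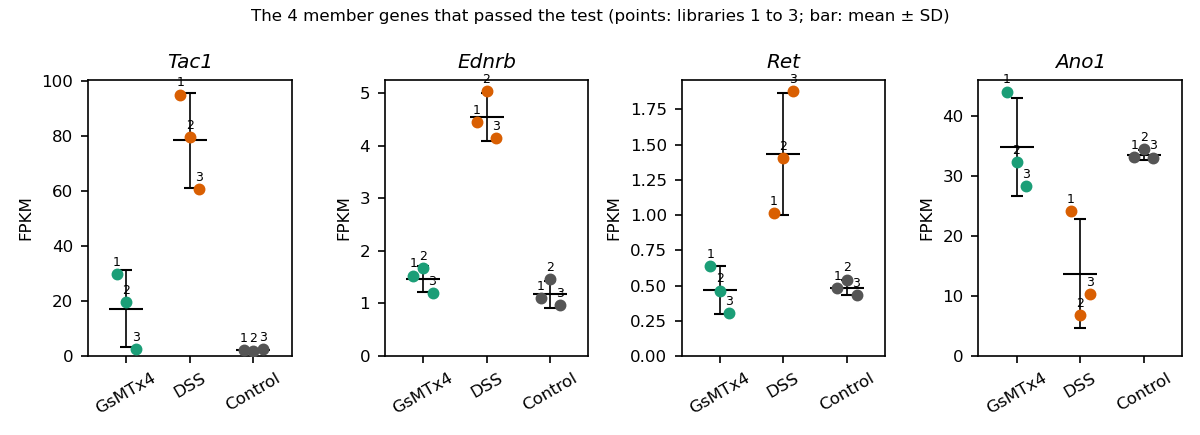
FPKM of the 4 member genes that passed the test, with 1 point per library numbered by replicate and a bar for the mean ± SD of each group, on linear axes from 0. Tac1, Ednrb and Ret are higher in each DSS library than in any GsMTx4 or Control library, and Ano1 is lower in each DSS library, at 6.82 to 24.1 FPKM.

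Tac1 did not follow the general neuronal genes from library to library. The library with the highest Tac1, DSS 1, had the lowest sum of the 12 general neuronal genes of all 9 libraries, at 4.01 FPKM. Those sums were 8.56 to 9.78 FPKM in GsMTx4, 8.28 FPKM in DSS 2, 33.6 FPKM in DSS 3 and 4.07 to 11.1 FPKM in Control. Tac1 was highest where that sum was lowest, and in DSS 3, with the highest sum, it was the lowest of the DSS libraries at 60.5 FPKM. This inverse order was seen within the 3 DSS libraries only. Control 1 had nearly the same sum as DSS 1, at 4.07 FPKM, with Tac1 at 2.08 FPKM. In the mouse, Tac1 is also known from enterochromaffin cells, the serotonin-producing endocrine cells of the epithelium. Their tryptophan hydroxylase gene Tph1 stood at 1.40, 1.26 and 1.80 FPKM in GsMTx4, at 1.80, 1.85 and 5.22 FPKM in DSS and at 1.90, 1.64 and 1.27 FPKM in Control. The 10 enteroendocrine markers summed to 260 to 281 FPKM in GsMTx4, 342 to 528 FPKM in DSS and 306 to 350 FPKM in Control. Most of each sum was Pyy (94.5 to 278 FPKM) and Insl5 (69.3 to 132 FPKM), so the sum is no measure of enterochromaffin cells. None of the 9 tested markers passed with limma in DSS against Control, where 1 had an unadjusted p under 0.05, beside 34.9% of all tested genes. The serotonin-synthesis gene Ddc, listed here as neuronal, fell in DSS against Control (log2 fold change -1.39 ± 0.26, limma adjusted p = 0.0087). In GsMTx4 against DSS 1, Pyy, fell (log2 fold change -0.88 ± 0.22, limma adjusted p = 0.033), beside 5.62% of all tested genes called lower. The part of these cells in the Tac1 values was not tested. Among receptors, the substance P receptor gene Tacr1 was below the level for the test, at 0.483, 0.356 and 0.244 FPKM in GsMTx4, 0.966, 1.28 and 2.68 FPKM in DSS and 0.165, 0.512 and 0.369 FPKM in Control.

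**Figure D2:**
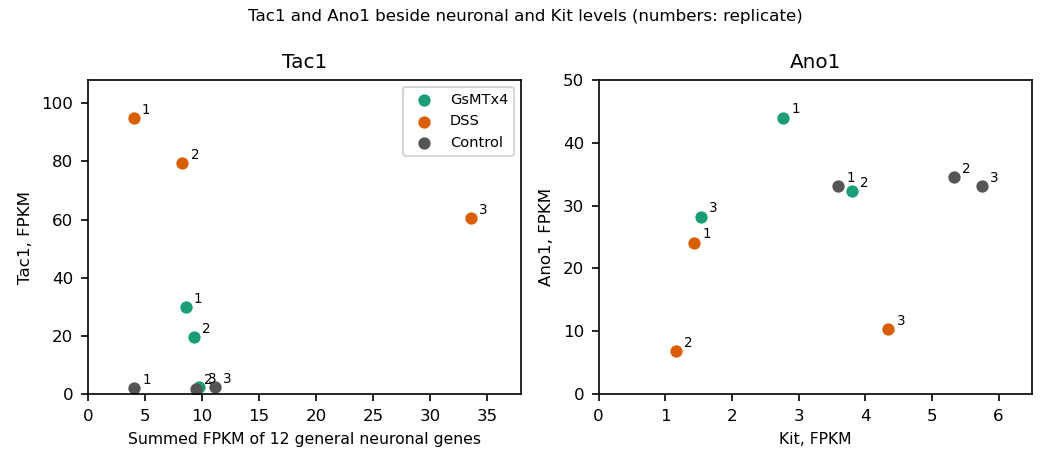
Left, Tac1 against the summed FPKM of the 12 general neuronal genes; right, Ano1 against Kit, both in FPKM with linear axes from 0 and 1 point per library numbered by replicate. DSS 1 combines the highest Tac1 with the lowest neuronal sum, and DSS 3 combines an Ano1 of 10.3 FPKM with a Kit of 4.34 FPKM, within the Control range of Kit.

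Ednrb and Ret encode the receptors whose signals guide neural crest cells into the gut. Ednrb, the receptor of endothelins on crest cells and also on endothelium (chromosome 14, 103814625 to 103844402), stood at 1.53, 1.67 and 1.19 FPKM in GsMTx4, 4.45, 5.05 and 4.14 FPKM in DSS and 1.10, 1.46 and 0.964 FPKM in Control. The DSS libraries lay apart from the other 6, which overlapped. It had log2 fold changes of 1.35 ± 0.15 in DSS against Control (limma adjusted p = 0.0012) and -1.17 ± 0.15 in GsMTx4 against DSS (limma adjusted p = 0.0029), and both calls held under each of 9 processing alternatives and without any 1 library. In GsMTx4 against Control the difference was 0.18 (95% interval -0.15 to 0.51, limma adjusted p = 0.72). Its ligand gene Edn3, which promotes migration of crest cells, stayed below the level for the test at 0.344 ± 0.182 FPKM in GsMTx4, 0.602 ± 0.361 FPKM in DSS and 0.470 ± 0.022 FPKM in Control (SD, n = 3 each).

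Ret, the signalling receptor for glial cell line-derived neurotrophic factor (chromosome 6, 118151745 to 118197718), stood at 0.639, 0.464 and 0.302 FPKM in GsMTx4, 1.01, 1.40 and 1.88 FPKM in DSS and 0.482, 0.541 and 0.434 FPKM in Control. It reached 1 FPKM in the DSS libraries alone, so it entered the test through the group where it was high. The log2 fold change was 0.70 ± 0.17 in DSS against Control (limma adjusted p = 0.025) and -0.72 ± 0.17 in GsMTx4 against DSS (limma adjusted p = 0.028), and with a lower level of 0.1 FPKM for the test, which 36 members reached, both passed again (adjusted p = 0.0221 and 0.0261). With no filter on low values neither passed (adjusted p = 0.05 and 0.0561), nor with the replicate number as a block (0.0605 and 0.0688), and GsMTx4 against DSS did not pass in a fit of the compared groups only (0.0934). The call in DSS against Control was lost without any Control library (adjusted p 0.0726 to 0.0847), DSS 2 (0.0595) or DSS 3 (0.0645). In GsMTx4 against DSS it was lost without Control 2 (0.0545), Control 3 (0.0521), DSS 2 (0.06), DSS 3 (0.0742), GsMTx4 2 (0.0828) or GsMTx4 3 (0.0668).

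The other genes of this pathway were low. Gdnf, the ligand, averaged 0.439 ± 0.0962 FPKM in GsMTx4, 0.691 ± 0.578 FPKM in DSS and 0.572 ± 0.149 FPKM in Control (SD, n = 3 each). Gfra1, its co-receptor, averaged 0.327, 0.462 and 0.332 FPKM in GsMTx4, DSS and Control. Gfra2, the co-receptor for neurturin, averaged 0.590 ± 0.158 FPKM in GsMTx4, 1.36 ± 0.686 FPKM in DSS and 0.580 ± 0.268 FPKM in Control, and with the lower level for the test it had an adjusted p of 0.136 in DSS against Control. Of the crest transcription factors, Hand2 was tested and did not pass, at 1.99, 1.86 and 1.30 FPKM in GsMTx4, 0.683, 2.77 and 12.9 FPKM in DSS and 1.06, 2.44 and 2.03 FPKM in Control. The noradrenergic and enteric regulator Phox2a and the crest regulator Foxd3 were at most 1.01 and 0.923 FPKM. Foxd3 was the other member, beside Tac1, Ednrb and Ret, whose GsMTx4 libraries all lay below all DSS libraries. Foxd3 was too low for the test, and its GsMTx4 1 and DSS 1 values nearly met, at 0.15 and 0.151 FPKM. Of the 14 tested members Tac1, Ednrb and Ret lay wholly below and Ano1 wholly above. Over all tested genes 12.8% lay wholly below and 17.5% wholly above. In DSS against Control 3 of the 14 tested members lay wholly above and 1 wholly below, beside 13.5% and 33.6% of tested genes. In GsMTx4 against Control these were 0 and 0, beside 5.0% and 14.6%. Ret entered the test through its DSS libraries, so these counts are no support for a rise.

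Beside Ednrb and Ret, markers of other cells differed between the same libraries. The 10 endothelial markers, a list added after the values were seen, summed to 43.0, 32.3 and 29.4 FPKM in GsMTx4, 79.2, 51.6 and 97.3 FPKM in DSS and 30.9, 33.0 and 39.9 FPKM in Control, with the DSS sums above the rest. Plvap was the largest part, at 38.8, 20.9 and 43.4 FPKM in DSS. Cldn5, Egfl7, Emcn, Eng, Plvap and Tek were each higher in every DSS library than in any other library. Pecam1, Cdh5, Kdr and Vwf overlapped, with DSS 2 below GsMTx4 1. The 8 fibroblast markers summed to 151 to 184 FPKM in GsMTx4, 183 to 355 FPKM in DSS and 178 to 194 FPKM in Control. Their part in the Ednrb and Ret values was not tested.

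**Figure D3:**
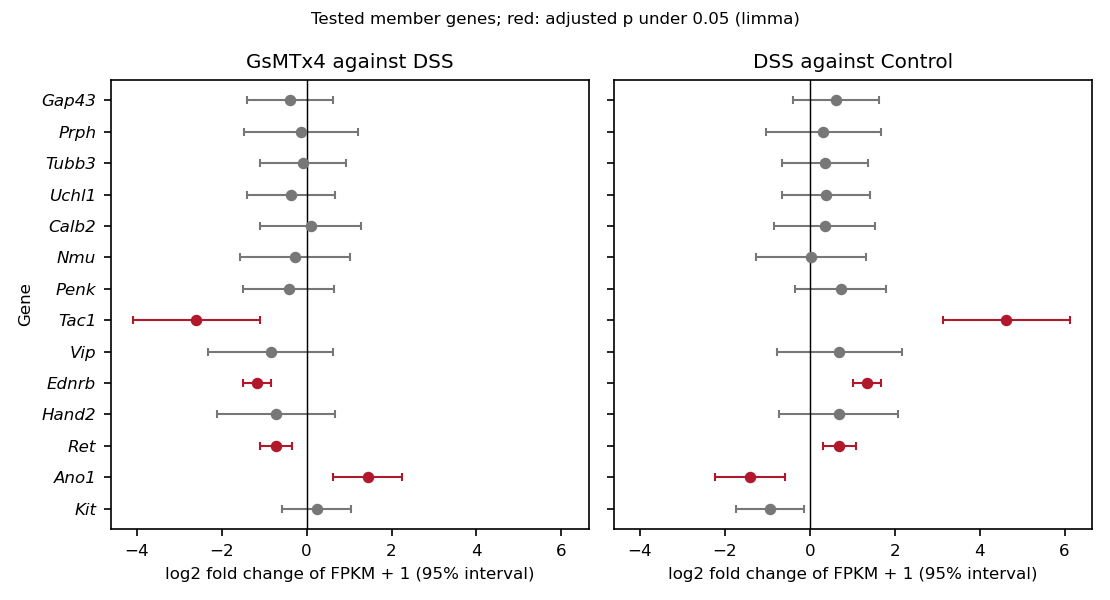
Log2 fold changes with 95% intervals from limma for the 14 tested member genes in GsMTx4 against DSS (left) and DSS against Control (right), with genes of adjusted p under 0.05 in red. Tac1, Ednrb, Ret and Ano1 pass in both panels with opposite signs, and the wide intervals of genes such as Vip and Hand2 include 0.

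Ano1 and Kit are used to mark interstitial cells of Cajal, where Kit is the receptor for stem cell factor and Ano1 the calcium-activated chloride channel of the pacemaker current. In Control, Ano1 averaged 33.6 FPKM and Kit 4.89 FPKM. Which cells of whole colon the Ano1 RNA came from was not tested. Ano1 (chromosome 7, 144588549 to 144751974) stood at 44.0, 32.3 and 28.3 FPKM in GsMTx4, 24.1, 6.82 and 10.3 FPKM in DSS and 33.1, 34.5 and 33.1 FPKM in Control. All DSS libraries lay below all others, and GsMTx4 and Control overlapped. The log2 fold change was -1.41 ± 0.36 in DSS against Control (limma adjusted p = 0.031) and 1.44 ± 0.36 in GsMTx4 against DSS (limma adjusted p = 0.036), and 0.03 (95% interval -0.79 to 0.85) in GsMTx4 against Control. The call in DSS against Control was lost without any Control library (adjusted p 0.0799 to 0.0922), DSS 2 (0.0745) or DSS 3 (0.0812), and with no filter on low values (0.0816). In GsMTx4 against DSS it held only without DSS 1 (adjusted p = 0.0038), and leaving out any other library gave 0.0528 to 0.098. It was also lost with no filter (0.0934), TPM rescaling (0.0581) and the compared groups only (0.0956).

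Kit stood at 2.77, 3.80 and 1.53 FPKM in GsMTx4, 1.43, 1.16 and 4.34 FPKM in DSS and 3.59, 5.33 and 5.75 FPKM in Control. It did not pass in DSS against Control (log2 fold change -0.94 ± 0.36, limma adjusted p = 0.10), with DSS 3 inside the Control range and DSS 1 and DSS 2 below it. Without DSS 3 it passed at -1.34 (adjusted p = 0.0224), and in GsMTx4 against DSS it was 0.24 ± 0.36 (limma adjusted p = 0.70). The Cajal cell transcription factor gene Etv1 was below the level for the test, averaging 0.353 ± 0.104, 0.494 ± 0.225 and 0.484 ± 0.0539 FPKM in GsMTx4, DSS and Control (SD, n = 3 each). Ano1 did not follow Kit: in GsMTx4 3 Ano1 was at 28.3 FPKM with Kit at 1.53 FPKM, while in DSS 3 Ano1 was at 10.3 FPKM with Kit at 4.34 FPKM. Kit is also the receptor of mast cells, whose 10 markers summed to 9.56 to 32.1 FPKM in GsMTx4, 13.9 to 30.5 FPKM in DSS and 23.3 to 79.6 FPKM in Control. The part of mast cells in the Kit values was not tested.

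The stem cell factor gene Kitl, the ligand of Kit, stood at 11.3, 18.4 and 12.5 FPKM in GsMTx4, 7.21, 5.75 and 12.03 FPKM in DSS and 18.1, 17.9 and 17.5 FPKM in Control. It fell in DSS against Control (log2 fold change -1.07 ± 0.25, limma adjusted p = 0.021), a call lost without any Control library (adjusted p 0.0618 to 0.0697), DSS 1 (0.0538) or DSS 2 (0.0585), and with no filter on low values (0.0552). Of 9 other interstitial cell genes 7 were tested, and 2 rose and 2 fell in DSS against Control, beside 6.41% and 10.7% of all tested genes. Those that rose were the gap junction gene Gja1 (0.80 ± 0.16, limma adjusted p = 0.013) and the ectonucleotidase gene Entpd1 (0.93 ± 0.19, limma adjusted p = 0.013), and beside Kitl the purine receptor gene P2ry1 fell (-0.82 ± 0.17, limma adjusted p = 0.014). In GsMTx4 against DSS, Gja1 (-0.83 ± 0.16), Entpd1 (-0.78 ± 0.19) and Pdgfra, the receptor gene of fibroblast-like interstitial cells (-1.03 ± 0.28), fell (limma adjusted p = 0.016, 0.031 and 0.041). In DSS against Control the Gja1 call was lost without Control 1 (adjusted p = 0.0513) or Control 2 (0.0535), Entpd1 without Control 2 (0.0533) and P2ry1 without Control 2 (0.0571) or Control 3 (0.0599). In GsMTx4 against DSS the Entpd1 call was lost without any Control library, DSS 3, GsMTx4 2 or GsMTx4 3 (adjusted p 0.0515 to 0.103) and Pdgfra without any library but Control 1 and GsMTx4 1 (0.0631 to 0.114). Of the 9 processing alternatives, Pdgfra was also lost in 5 (adjusted p 0.0549 to 0.102), Entpd1 in 4 (0.0591 to 0.095) and Gja1 with the compared groups only (0.0579).

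The genes of neuronal structure followed library DSS 3 rather than the groups. Of the 38 members 32, or 84.2%, had their highest value in DSS 3, against 19.2% of the 33133 genes above 0 in any library. All 12 general neuronal genes were among them, and the 6 members highest elsewhere were Tac1, Ednrb, Ano1, Kit, Calb1 and S100b. Over the 32 members, DSS 3 stood at a median of 4.23 times the median of the other 8 libraries, with a range of 1.70 for Ncam1 to 20.0 for Gfap. The mean of the 3 DSS libraries exceeded the Control mean for 32 members, and the mean of DSS 1 and DSS 2 alone for 12.

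**Figure D4:**
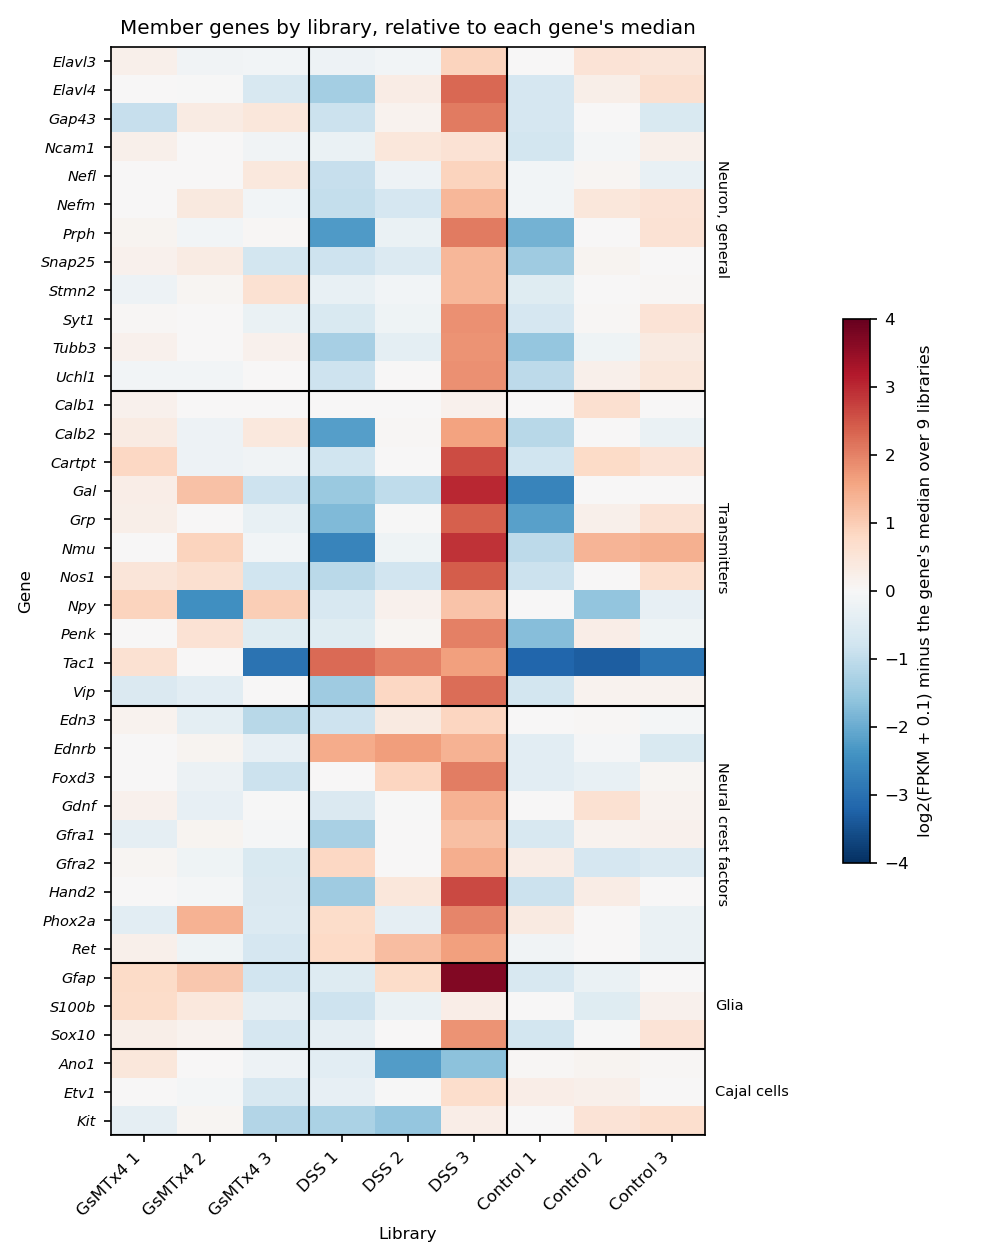
Log2(FPKM + 0.1) of the 38 member genes (rows) in the 9 libraries (columns), relative to each gene's median over the libraries, with red above and blue below it. DSS 3 is red in most rows, while Tac1 and Ednrb are red in all 3 DSS libraries and Ano1 is blue in them.

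Uchl1, the ubiquitin hydrolase used as a general neuronal marker, stood at 1.87, 1.86 and 2.02 FPKM in GsMTx4, 1.10, 2.02 and 7.49 FPKM in DSS and 0.918, 2.33 and 2.803 FPKM in Control. Elavl4 was at 0.297, 0.292 and 0.154 FPKM in GsMTx4, 0.0537, 0.386 and 1.83 FPKM in DSS and 0.151, 0.370 and 0.523 FPKM in Control. In both genes DSS 1 lay at or near the bottom and DSS 3 at the top, so the DSS libraries enclosed nearly all others. The 4 tested genes of this group were the neuronal tubulin Tubb3, the intermediate filament gene Prph, the growth cone gene Gap43 and Uchl1. None passed with limma in any comparison, with log2 fold changes of 0.32 to 0.62 in DSS against Control and -0.39 to -0.08 in GsMTx4 against DSS, and none had an unadjusted p under 0.05. Without DSS 3 the signs turned: DSS against Control gave -0.43 for Prph, -0.23 for Tubb3 and -0.20 for Uchl1, and GsMTx4 against DSS gave 0.62, 0.50, 0.21 and, for Gap43, 0.19. The synaptic genes Snap25 and Syt1, the neurofilament genes Nefl and Nefm, Stmn2, Elavl3 and the adhesion molecule gene Ncam1 were below the level for the test, at 0.0242 to 2.19 FPKM over all libraries.

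Among transmitter genes other than Tac1, Vip, which encodes the vasoactive intestinal peptide of inhibitory and secretomotor neurons, was the highest. Vip stood at 4.01, 4.40 and 5.97 FPKM in GsMTx4, 2.19, 10.7 and 28.5 FPKM in DSS and 3.56, 6.56 and 6.53 FPKM in Control. DSS 1 was the lowest and DSS 3 the highest library, and the differences did not pass (log2 fold change 0.70 ± 0.65 in DSS against Control, limma adjusted p = 0.46, and -0.85 ± 0.65 in GsMTx4 against DSS, limma adjusted p = 0.42). Without DSS 1 both passed, at 1.54 (adjusted p = 0.0362) and -1.70 (adjusted p = 0.0345), and without DSS 3 the difference from Control was -0.06 (adjusted p = 0.941). Nos1, the nitric oxide synthase of inhibitory motor neurons, was below the level for the test at 0.317, 0.369 and 0.071 FPKM in GsMTx4, 0.0428, 0.0779 and 1.51 FPKM in DSS and 0.0648, 0.199 and 0.375 FPKM in Control.

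The calcium-binding protein gene Calb2 and the peptide precursor genes Penk (enkephalins) and Nmu (neuromedin U) were tested and did not pass. Calb2 averaged 2.73 ± 0.633 FPKM in GsMTx4, 3.41 ± 3.56 FPKM in DSS and 1.77 ± 0.666 FPKM in Control (SD, n = 3 each). Penk averaged 1.82 ± 0.702, 3.39 ± 3.29 and 1.34 ± 0.811 FPKM in GsMTx4, DSS and Control, and Nmu 0.687 ± 0.329, 1.68 ± 2.51 and 1.09 ± 0.768 FPKM. Gal (galanin) reached 4.89 FPKM in DSS 3 and at most 1.28 FPKM elsewhere, and Grp (gastrin-releasing peptide) 2.26 FPKM in DSS 3 and at most 0.578 FPKM elsewhere. Npy (neuropeptide Y) and Cartpt stayed below 1 FPKM in all libraries except for Npy at 1.11 FPKM in DSS 3, and Calb1 was at most 0.056 FPKM. All of these except Calb1 were highest in DSS 3.

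No glial member reached the level for the test. Sox10 stood at 0.504, 0.467 and 0.223 FPKM in GsMTx4, 0.300, 0.410 and 1.68 FPKM in DSS and 0.209, 0.405 and 0.640 FPKM in Control. The glial filament gene Gfap stood at 0.510, 0.653 and 0.110 FPKM in GsMTx4, 0.152, 0.4996 and 4.59 FPKM in DSS and 0.130, 0.200 and 0.259 FPKM in Control. The calcium-binding protein gene S100b stood at 0.579, 0.452 and 0.221 FPKM in GsMTx4, 0.130, 0.241 and 0.392 FPKM in DSS and 0.309, 0.194 and 0.359 FPKM in Control. Gfap in DSS 3 was far above all other libraries, S100b there was within the range of the other groups, and the groups overlapped for all 3 genes. Of 11 further glial genes that were measured, 3 were tested, and none passed in any comparison.

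Other tissue layers differed between the DSS libraries as well. The 10 smooth muscle markers summed to 747, 572 and 711 FPKM in GsMTx4, 229, 595 and 878 FPKM in DSS and 446, 720 and 731 FPKM in Control, lowest in DSS 1 and highest in DSS 3 as for the neuronal genes. The general neuronal sum was 4.01 FPKM in DSS 1 and 33.6 FPKM in DSS 3, a ratio of 8.38, against 3.84 for the muscle markers. The same ratio was 11.4 for the glial members, 3.05 for the neural crest members and 0.596 for the Cajal cell members. It was 1.2 for the transmitter members, which include Tac1, and 2.95 for the 22 other neuronal genes. Neutrophil, fibroblast and epithelial markers gave 3.9, 1.94 and 0.828. Fibroblast and neutrophil markers were each highest in DSS 3 for 7 of 8 genes, beside 19.2% of all genes above 0 in any library. Enteroendocrine markers were highest there for 6 of 10 genes and tuft cell markers for 4 of 6. The general epithelial markers were highest there for 0 of 8, mast cell markers for 1 of 10 and red blood cell markers for 0 of 5. The part of tissue composition in the values of the neuronal genes was not tested.

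**Figure D5:**
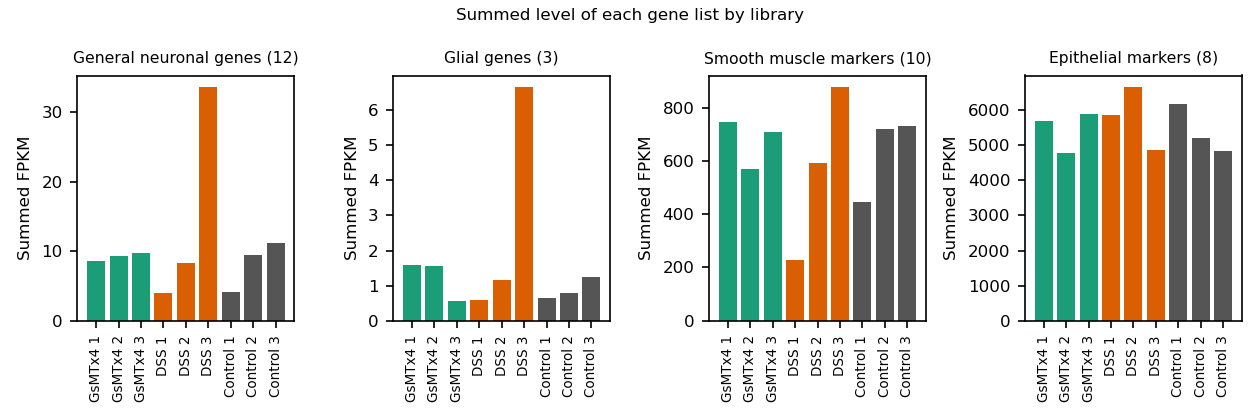
Summed FPKM of general neuronal genes, glial genes, smooth muscle markers and epithelial markers in each of the 9 libraries, on linear axes from 0. DSS 3 has the highest neuronal, glial and muscle sums and DSS 1 the lowest neuronal and muscle sums, while the epithelial sums run from 4784 to 6659 FPKM.

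Of 22 other genes listed as neuronal 4 were tested. Where 10.7% of all tested genes were called lower in DSS against Control, 2 of these 4 fell. They were the serotonin receptor gene Htr4 and Ddc, which encodes the decarboxylase that makes serotonin and dopamine. Htr4 stood at 2.56, 3.95 and 3.59 FPKM in GsMTx4, 0.669, 0.245 and 0.467 FPKM in DSS and 4.92, 6.63 and 5.87 FPKM in Control, and the 3 groups did not overlap. It fell by 2.22 (SE 0.18) on the log2 scale in DSS against Control (limma adjusted p = 0.00047) and rose by 1.58 ± 0.18 in GsMTx4 against DSS (limma adjusted p = 0.0022), and both calls held without any 1 library. Ddc fell by 1.39 (SE 0.26) on the log2 scale in DSS against Control (limma adjusted p = 0.0087), also without any 1 library. In GsMTx4 against DSS, Ddc did not pass (0.70 ± 0.26, limma adjusted p = 0.10), but did without GsMTx4 1 (0.98, adjusted p = 0.0259). Which cells of whole colon the Htr4 and Ddc RNA came from was not tested. Unlike the structural genes, neither was highest in DSS 3, where they stood at 0.467 and 5.88 FPKM. Of the 22 genes, 18 were highest in DSS 3, among them the acetylcholine-synthesising enzyme gene Chat at 0.294 FPKM.

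Of 15 other trophic factor genes 8 were tested, and 3 rose in DSS against Control, where 6.41% of all tested genes were called higher. Nrg1 and Artn reached the level for the test only through the DSS libraries, so this count is no support for a rise. Nrg1, a neuregulin that acts on glia and epithelium, stood at 0.355, 0.488 and 0.130 FPKM in GsMTx4, 2.19, 1.64 and 2.57 FPKM in DSS and 0.542, 0.425 and 0.322 FPKM in Control. The DSS libraries lay apart from the rest and were the only ones above 1 FPKM, so Nrg1 entered the test through the group where it was high. Its log2 fold change was 1.12 ± 0.17 in DSS against Control (limma adjusted p = 0.0042) and -1.24 ± 0.17 in GsMTx4 against DSS (limma adjusted p = 0.0043), and both calls held without any 1 library, at the level of 0.1 FPKM (0.00412 and 0.004) and with no filter (0.0123 and 0.0136). The endothelin receptor gene Ednra, a relative of Ednrb, rose by 1.18 ± 0.26 (limma adjusted p = 0.016) and fell by 1.16 (SE 0.26) in GsMTx4 against DSS (limma adjusted p = 0.022). The rise was lost without Control 1 (adjusted p = 0.0513) or Control 3 (0.0579) and the fall without DSS 3 (0.0623) or GsMTx4 2 (0.0553), with no filter (0.0638), with the compared groups only (0.0713) and with the replicate block (0.0554). Artn, the ligand artemin, rose by 0.55 ± 0.16 (limma adjusted p = 0.047), a call lost without any Control or DSS library or GsMTx4 1 (adjusted p 0.0514 to 0.161) and in 4 of the 9 processing alternatives (0.0566 to 0.095). It too reached 1 FPKM in the DSS libraries alone, and at the level of 0.1 FPKM its adjusted p was 0.0463.

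Of 16 neuropeptide receptor genes 4 were tested. Where 10.7% of all tested genes were called lower in DSS against Control, 1 of these 4 fell. It was Npy1r, a receptor for neuropeptide Y and peptide YY, at 0.878, 2.62 and 3.13 FPKM in GsMTx4, 0.222, 0.508 and 0.462 FPKM in DSS and 4.64, 2.6 and 3.11 FPKM in Control. The log2 fold change was -1.65 ± 0.30 in DSS against Control (limma adjusted p = 0.0076), held without any 1 library. It was 1.13 ± 0.30 in GsMTx4 against DSS (limma adjusted p = 0.039), lost without any library but Control 1 and GsMTx4 1 (adjusted p 0.0579 to 0.131) and in 5 of the 9 processing alternatives (0.051 to 0.105). No gene of the 4 lists of other neuronal, interstitial, trophic factor and receptor genes passed with limma in GsMTx4 against Control, and 5 of their 23 tested genes had an unadjusted p under 0.05, beside 10.1% of all tested genes.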

How the data were processed

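RNA of whole colon was sequenced in 9 libraries, 3 per group, grouped by sample title. The authors deposited FPKM values for each library. The submitters' processing notes name cutadapt, FastQC and build GRCm38. How reads were aligned and quantified is not given in the sources used here. The FPKM unit is normalized to length and library size, so it was not treated as counts. Symbols and positions came from GENCODE M21 (GRCm38), which held 35196 of the 35315 gene identifiers.

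Values were transformed to log2(FPKM + 1), which understates changes of low genes. Genes at 1 FPKM or more in at least 3 of 9 libraries were tested. limma 3.58.1 (R 4.3.3) fitted the 9 libraries with a mean for each group, leaving 6 degrees of freedom, and a trended empirical Bayes step, two-sided, with Benjamini-Hochberg adjustment over all 14360 tested genes of a comparison. The fit was tested on simulated data with changes placed only in genes at higher Control levels. That test does not cover low genes such as Ednrb and Ret. Values in every library were given for members passing in any comparison and for Elavl4, Uchl1, Nos1, Vip, Ret, Sox10, S100b, Gfap, Kit and Ano1; others were given by group means, ranges or counts. From the lists of related genes, those that passed are named. Genes named beyond these (Hand2, Tph1, Pyy, Tacr1, Chat) were chosen after their values were seen. Members, gene lists and tests were chosen with earlier results of these data known. Alternatives were a smaller pseudocount, 2 looser filters, 3 rescalings, a fit of the compared groups, no trend, a replicate block and each library left out. Figures were drawn with matplotlib 3.10.9.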

Additional observations from a re-analysis of the deposited data

How the results depend on the processing

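Depth in reads is unknown, and 24 of 38 members were too low to test, so a missing call is no sign that a gene did not change. Counts of members higher and lower in DSS against Control were 3 and 1. The count lower was 0 with no filter on low values. Counts higher and lower in GsMTx4 against DSS were 1 and 3. The count higher was 0 with no filter, with TPM rescaling and with a fit of the compared groups only, and the count lower was 1 with no filter and 1 with the compared groups only. Leaving out 1 library gave 2 to 4 members higher (4 without DSS 1, with Vip) and 0 to 1 lower in DSS against Control, 0 to 1 higher and 1 to 3 lower in GsMTx4 against DSS, and 0 to 1 higher and 0 to 0 lower in GsMTx4 against Control. Under the other alternatives 355 of 378 results of single members kept their direction and call, 12 lost the call and 11 turned direction, all of these uncalled on both sides. With 1 library left out, 316 of 378 kept both, 31 lost the call, 4 gained one and 27 turned direction. Most of the 378 results were uncalled in the main fit. Only calls of Tac1, Ednrb, Ret and Ano1 in the 2 comparisons with DSS could be lost, so 378 does not measure how stable calls are.

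Whether replicate numbers pair the samples is not stated. Deviations from the group means correlated at -0.23 to 0.10 between same-numbered libraries and at -0.19 to 0.31 between differently numbered ones. With so few libraries these values cannot settle whether samples were paired. With the replicate block 2 members were higher and 1 lower in DSS against Control, 1 higher and 2 lower in GsMTx4 against DSS and 0 in GsMTx4 against Control, Ret being the call lost in each (adjusted p = 0.0605 and 0.0688). Over all genes the block gave 1078 calls in place of 1763 in GsMTx4 against DSS. The compared groups alone gave 587 and no filter 1073, and in GsMTx4 against Control the pseudocount of 0.1 gave 21 in place of 34. Without 1 library these totals ran from 963 to 3101 in DSS against Control (2462 with all), 716 to 1977 in GsMTx4 against DSS and 13 to 83 in GsMTx4 against Control. Rescaling moved the median log2 fold change of DSS against Control by 0.15 (median of ratios), 0.12 (quantile) and -0.10 (TPM), and 58.6%, 50.1% and 27.5% of calls were then higher, in place of 37.4%. No called result of a named gene turned direction under any alternative.

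Uncalled log2 fold changes that turned direction were these. In GsMTx4 against Control, TPM rescaling gave -0.07 for Ano1, -0.05 for Uchl1 and -0.06 for Ednra. Median-of-ratios scaling gave 0.03 for Hand2, 0.01 for Ret, 0.04 for Artn and 0.06 for Gja1, and quantile normalization 0.06, 0.04, 0.07 and 0.08 for the same genes. In DSS against Control, Nmu was -0.54 with the pseudocount of 0.1 and -0.21 with TPM rescaling. That pseudocount gave 0.22 for Nmu, 0.16 for Prph and 0.09 for Tubb3 in GsMTx4 against DSS, and -0.01 for Ednra in GsMTx4 against Control. Over the libraries left out, values in DSS against Control ran from -0.28 to 0.99 for Calb2, -0.14 to 1.38 for Hand2, -0.71 to 0.53 for Nmu, -0.43 to 0.92 for Prph, -0.23 to 0.75 for Tubb3, -0.20 to 0.81 for Uchl1 and -0.06 to 1.54 for Vip. Those in GsMTx4 against DSS ran from -0.54 to 0.73 for Calb2, -0.81 to 0.19 for Gap43, -1.42 to 0.10 for Hand2, -0.01 to 0.64 for Kit, -0.77 to 0.46 for Nmu, -0.79 to 0.15 for Penk, -0.73 to 0.62 for Prph, -0.48 to 0.50 for Tubb3 and -0.80 to 0.21 for Uchl1. In GsMTx4 against Control they ran from -0.15 to 0.16 for Ano1, -0.09 to 0.10 for Artn, -0.16 to 0.30 for Ednra, -0.13 to 0.12 for Gja1, -0.26 to 0.11 for Hand2, -0.44 to 0.05 for Pdgfra, -0.19 to 0.48 for Prph, -0.11 to 0.06 for Ret and -0.29 to 0.21 for Uchl1. The cause was not tested.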
